A study of Homo sapiens with 24 samples.

Results

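The keratin genes were taken as the protein-coding genes whose symbol is KRT followed by a number and at most 1 letter, which leaves out the keratin-associated proteins. There are 55 such genes among 20098 protein-coding genes of GENCODE 44 on hg19 (GRCh37). The 27 genes on chromosome 12 form the type II cluster and include KRT18, a type I keratin that lies beside KRT8. The 28 genes on chromosome 17 form the type I cluster. For each gene, peaks of S100A8 and S100A9 with a q value of at most 1e-07 were counted where the summit lay in the gene body or within 5 kb of it, which is called the gene's window below. At least 1 peak was found at 11 of the 55 genes in the ethanol (EtOH) libraries and at 30 of the 55 in the tamoxifen (TAM) libraries. KRT80 and KRT6A were called with more peaks in TAM than in EtOH by the test across all genes, which called 20.2% of the genes tested, and no keratin gene was called with fewer. Neither gene was called at equal list lengths, where KRT6A had peaks in too few libraries to be tested. Neither was called when treatment was permuted within proteins or within replicate numbers. In each of these settings, 0 genes of the whole table were called. The smallest possible p is 0.01 within proteins and 0.0185 within replicate numbers (exact permutation tests). A gene can be called there only if a large share of all genes has a p that small.

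Keratins are the intermediate filament proteins of epithelial cells. A type I and a type II keratin pair with each other to form the filament, and each epithelium uses its own pairs. KRT5 and KRT14 are the pair of basal cells, KRT8 and KRT18 that of simple and luminal cells, and KRT6A, KRT6B, KRT6C, KRT16, and KRT17 are known as keratins of wounded and activated epithelium. In the breast, basal and luminal cells are commonly told apart by these proteins.

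The cells were MCF-10A–ER-Src, a line derived from non-transformed human mammary epithelium that carries v-Src joined to the ligand-binding domain of the estrogen receptor. All cells compared here carry this fusion, so that TAM, here 1 μM 4-hydroxytamoxifen for 24 hours, switches on Src and transforms them, while EtOH is the vehicle. The cells stably express S100A8 or S100A9 with a C-terminal Flag tag from a retroviral vector under hygromycin selection, and ChIP with a Flag antibody followed dual cross-linking. The proteins measured are therefore introduced copies, not the cells' own S100A8/A9. Peak lists of 11 libraries were used, 2 of S100A8 in EtOH and 3 each of S100A8 in TAM, S100A9 in EtOH, and S100A9 in TAM. The study's methods speak of biological replicates, but neither they nor the labels say what was repeated, so that p-values measure the spread between these libraries. Pol II and input libraries and RNA were not analyzed here, and no statement about keratin expression is made.

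The lists differ in size, and this touches every count below. With q ≤ 1e-07 they hold 1853 to 4609 peaks in EtOH and 21518 to 40735 peaks in TAM. The read depth of the libraries is unknown, and depth and the amount of bound protein cannot be told apart from peak numbers. The library of S100A9 in TAM, replicate 3, stands apart with the largest list. It had 48 peaks in keratin windows, against 19 to 29 in the other 5 TAM libraries, and where a count depends on it by a large factor, the value without it is given.

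In EtOH, 5 and 4 of the 55 genes had a peak in the 2 S100A8 libraries, and 2, 3, and 6 in the 3 S100A9 libraries. In TAM, 20, 17, and 14 genes had a peak in the S100A8 libraries and 16, 13, and 28 in the S100A9 libraries. The mean was 4 ± 1.58 genes in EtOH (SD, n = 5) and 18 ± 5.48 genes in TAM (SD, n = 6), and the 2 sets of libraries did not overlap. Without replicate 3 of S100A9, the TAM mean was 16 ± 2.74 genes. The means correspond to 7.27% of keratin genes in EtOH and 32.7% in TAM, against 17.5% and 60.8% of all protein-coding genes. At least 1 EtOH library had a peak at 20% of keratin genes and at 44.9% of all genes, and at least 1 TAM library at 54.5% and 80.6%. A keratin gene is also a smaller target, with a median gene body of 7098 bp against 27256.5 bp over all genes. When each library was cut to its 1853 peaks with the smallest q values, the mean fell to 2.2 ± 0.837 genes in EtOH and 0.667 ± 0.816 genes in TAM, so that the order turned around. Of all genes tested under that cut, 41.5% had the higher mean in TAM, against 99.0% with the full lists. At equal list lengths, the larger number of keratin genes in TAM was thus not seen. The cut bears unequally on the lists, which held 1853 to 4609 peaks in EtOH and 21518 to 40735 in TAM. Peaks in keratin windows in TAM had a median percentile of 42.6 in fold enrichment within their libraries. The cut ranks peaks by q value and not by fold enrichment. How much of the fall in TAM follows from the cut itself was not tested, and the reversal cannot tell list size from binding.

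**Figure D1:**
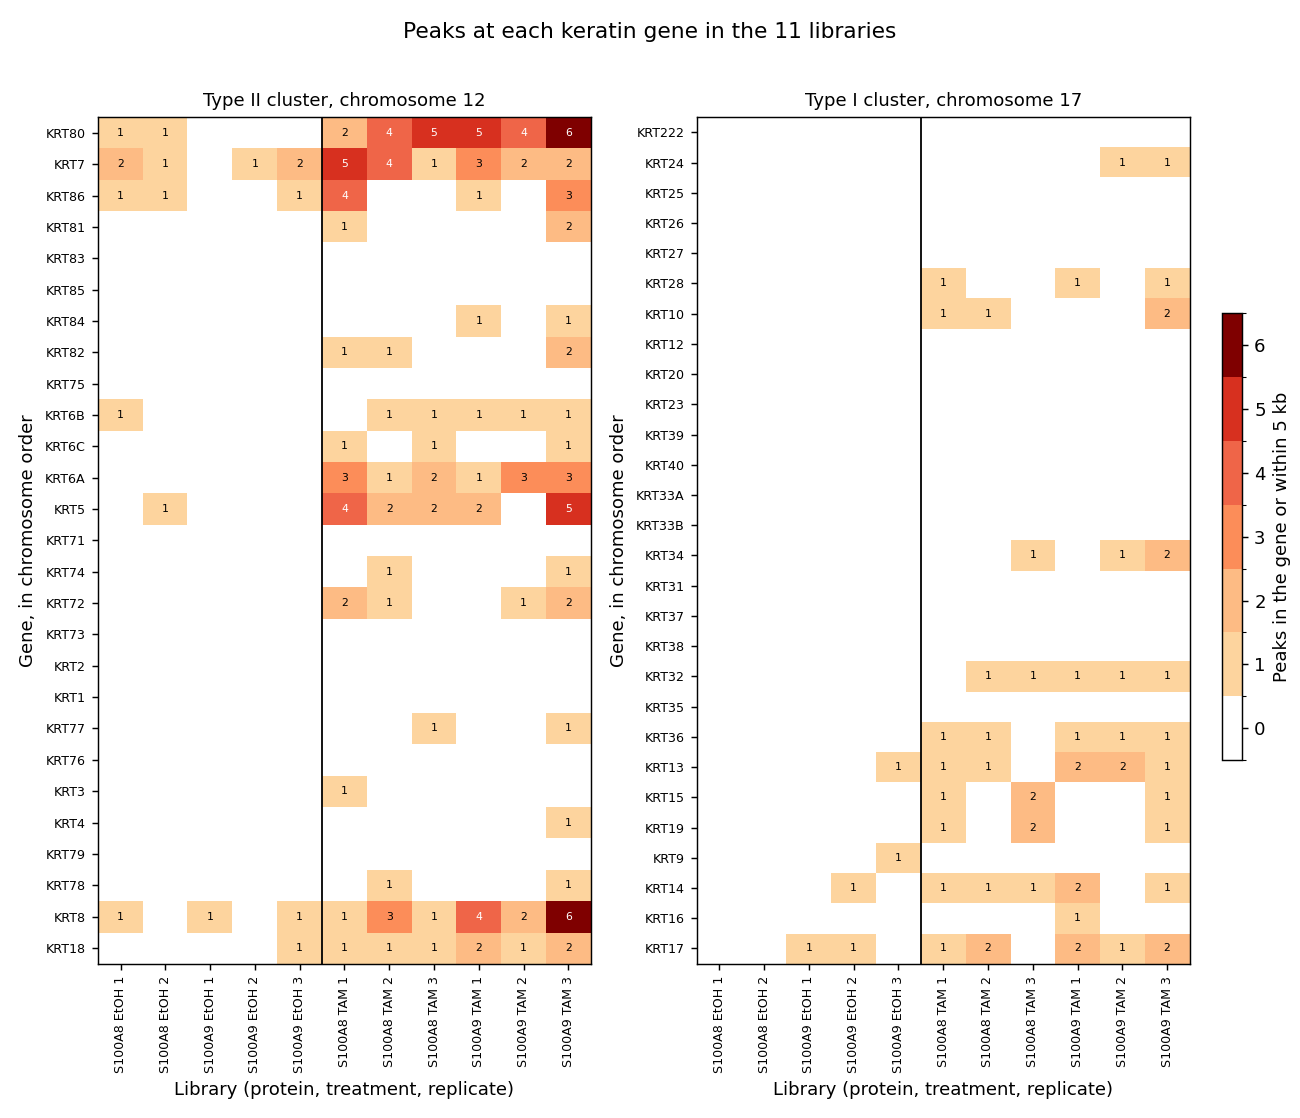
Number of peaks (color and digit, white for 0) in the window of each of the 55 keratin genes (rows, in chromosome order) in each of the 11 libraries (columns, EtOH to the left of the line and TAM to the right). Of the genes, 24 are empty in every library, and KRT80, KRT7, KRT8, KRT18, and KRT6A have a peak in all 6 TAM libraries.

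A total of 31 genes had a peak in at least 1 library, and 24 had none (43.6%, against 19.1% of all genes). Genes with a peak in all 6 TAM libraries numbered 5, all in the type II cluster, namely KRT80, KRT7, KRT6A, KRT8, and KRT18, where 33% of all genes did so. Promoters, taken as 1500 bp upstream to 250 bp downstream of an annotated start, held a peak at 5 keratin genes in EtOH and at 13 in TAM, and the shares over all genes were 29% and 60.6%. Peaks were seen at 20 keratin genes in TAM libraries and in no EtOH library (36.4%), a share like the 36% of all genes. The reverse was seen only at KRT9, a keratin of palm and sole skin, which had a single peak, in replicate 3 of S100A9 in EtOH. Its fold enrichment over input was 8.19 and its summit lay 4828 bp upstream of the start of KRT9.

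Some of the empty genes are neighbors. On chromosome 17, 7 neighboring keratin genes from KRT12 to KRT33B had no peak in any library. This stretch holds KRT20 and KRT23, keratins of gut-type and other simple epithelia, and KRT39, KRT40, and KRT33A of hair. On chromosome 12, the longest run was of 3 genes, KRT73 of the hair root sheath and KRT2 and KRT1 of the outer epidermis. Of the 24 empty genes, 18 had at least 1 weaker peak that the authors called with a q value between 1e-07 and 0.05, and 6 had none at all. An empty gene here means that no peak passed the threshold, not that binding was absent.

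For the test of TAM against EtOH, treatment labels were permuted over the 11 libraries, with 462 arrangements and a smallest possible two-sided p of 0.004329. It was run on the 15010 genes that had a peak in at least 2 libraries, and p-values were adjusted by the Benjamini-Hochberg method over all of them. More peaks in TAM were called at 20.2% of these genes and fewer at 0 genes. Of the 27 keratin genes tested, 2 were called (7.41%). All 27 had the higher mean in TAM, as did 99.0% of all genes tested. However, 17 of the 27 have no EtOH peak, as do 40.2% of all genes tested. Such genes passed the filter through TAM alone, which fixes their direction. The median difference between TAM and EtOH was 0.667 peaks per gene over the 27, against 1.07 over all genes tested. The 2 genes are described for their own values, and counts of calls in the lists below are to be read against the 20.2%.

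KRT80, a type II keratin of differentiating and internal epithelia, had the most peaks of the 55 genes. The S100A8 libraries in EtOH had 1 and 1 peaks and the S100A9 libraries in EtOH had 0, 0, and 0. The S100A8 libraries in TAM had 2, 4, and 5, and the S100A9 libraries in TAM had 5, 4, and 6. Every TAM library lay above every EtOH library, with means of 4.33 ± 1.37 (SD, n = 6) and 0.4 ± 0.548 (SD, n = 5) and an adjusted p of 0.0254 in the exact permutation test. At equal list lengths the difference between TAM and EtOH was -0.4 peaks. The call was also lost with q ≤ 1e-10, in gene bodies, in promoters, and with presence in place of number of peaks, with adjusted p-values of 0.169, 0.0742, 0.461, and 0.242 in the exact permutation test.

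KRT6A, the activated keratin that is commonly induced at wound edges, had no peak in any EtOH library. It is thus among the genes that passed the filter through TAM alone, which fixes the direction of its difference. It had 3, 1, and 2 peaks in the S100A8 libraries in TAM and 1, 3, and 3 in the S100A9 libraries in TAM. The TAM mean was 2.17 ± 0.983 (SD, n = 6), again with no overlap between treatments and with an adjusted p of 0.0254 in the exact permutation test. Both calls rest on a p at its smallest possible value, which every tested gene without overlap between treatments reaches. Of all genes tested, 20.2% were called. Leaving out replicate 2 of S100A9 in EtOH brought the adjusted p of both genes to 0.0535, and no gene of the whole table passed without that library. With treatment permuted within each protein, the adjusted p of both was 0.0507, and with the replicate number as a block it was 0.0847. The exact permutation test then called 0 of all genes. With smallest possible p-values of 0.01 and 0.0185, it could call a gene only if a large share of all genes reached them.

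Of the 4 activated keratins tested, KRT6A was the only gene called, 25% against 20.2% of all genes tested. KRT6B had 1 peak in an S100A8 library in EtOH and 1 peak in 5 of the 6 TAM libraries (adjusted p = 0.201, exact permutation test). KRT6C had 1 peak in 3 TAM libraries and none in EtOH. KRT17 had 1 peak in replicates 1 and 2 of S100A9 in EtOH, none in the S100A8 libraries in EtOH, and 1, 2, 0, 2, 1, and 2 peaks in the TAM libraries. Its treatments overlapped. KRT16, the partner of KRT6 keratins, had a single peak, in replicate 1 of S100A9 in TAM, with a fold enrichment of 7.33 in an untranslated exon 251 bp downstream of its start. Only uniquely mapped reads were kept by the authors, and these genes have near-identical copies. Of the 50-base words in the windows, 8.59% occur more than once in the genome for KRT6A, 12.5% for KRT6B, 14.8% for KRT6C, 14.2% for KRT16, and 12.7% for KRT17, against 1.25% for KRT5. Shares near this range or above it were also found outside the activated keratins. They were 8.99% for KRT14, 9.72% for KRT8, 8.41% for KRT18, 9.97% for KRT86, and 19.9% for KRT81. Peak numbers of genes with such shares are therefore uncertain, and the part of this in the low counts was not tested.

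None of the 3 basal keratins was called. KRT5 had 1 peak in an S100A8 library in EtOH and none in the other 4. It had 4, 2, and 2 peaks in the S100A8 libraries in TAM and 2, 0, and 5 in the S100A9 libraries in TAM. A single TAM library, replicate 2 of S100A9, was as empty as the EtOH libraries, and the adjusted p was 0.0613 (exact permutation test). Without that library, the only TAM library with no KRT5 peak, KRT5 was called, as were 2974 of 14740 genes tested. No other omission of a library called KRT5. Omitting other single libraries called KRT32, KRT36, or KRT18 instead. KRT14, its type I partner, had 1 peak in replicate 2 of S100A9 in EtOH and 1, 1, 1, 2, 0, and 1 peaks in TAM (adjusted p = 0.176, exact permutation test). KRT15, found in basal and stem-like cells, had 1, 0, and 2 peaks in the S100A8 libraries in TAM and 0, 0, and 1 in the S100A9 libraries. These same peaks lie within 5 kb of KRT19, so that KRT15 and KRT19 have identical counts and are not separate evidence.

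**Figure D2:**
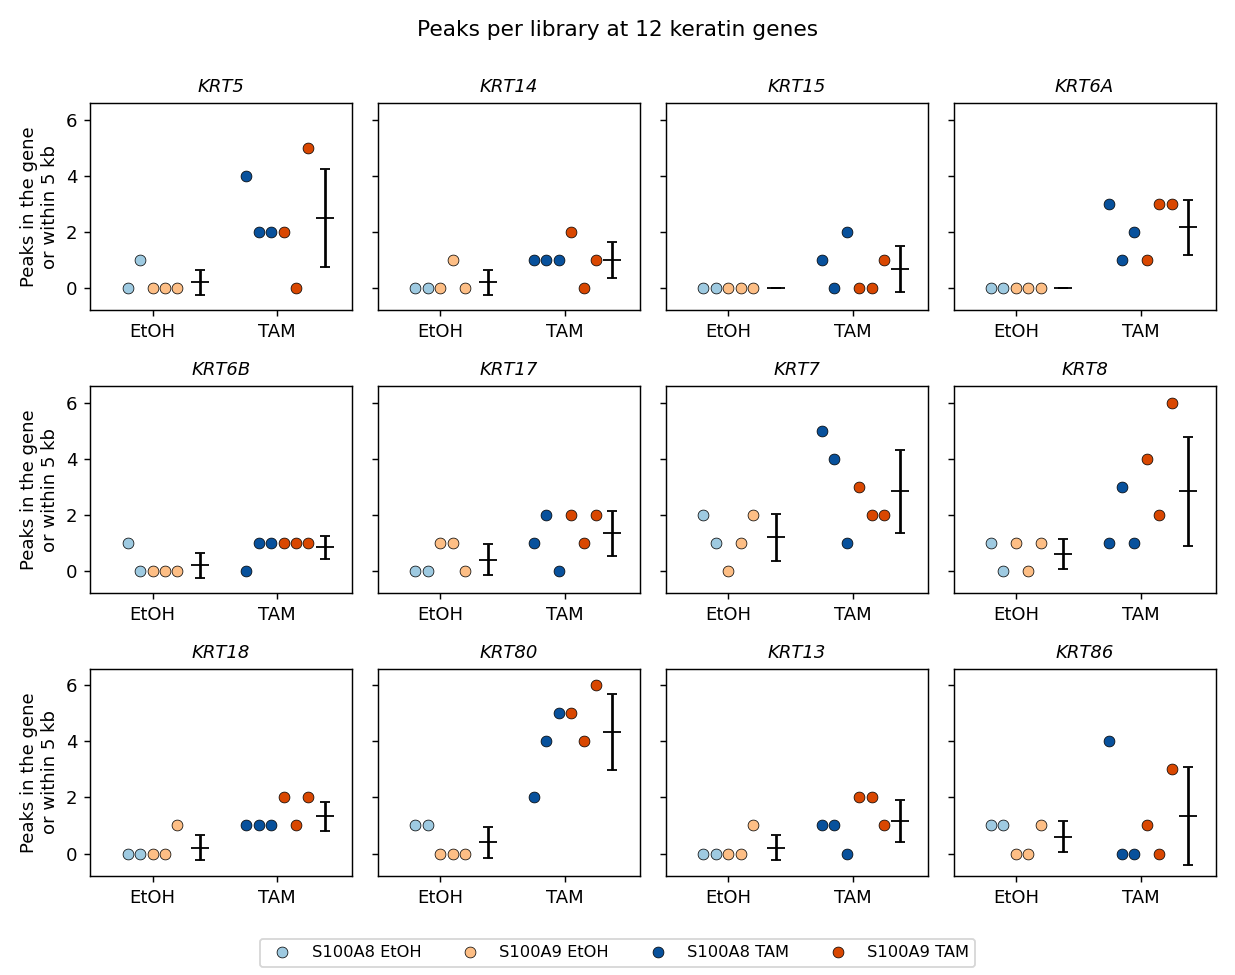
Number of peaks in the gene or within 5 kb (vertical axis) at 12 keratin genes in the 5 EtOH and 6 TAM libraries, with a point per library colored by protein and treatment and the mean with SD beside them. The treatments do not overlap at KRT80 and KRT6A, while at all other genes shown libraries of both treatments share values.

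Of the 6 simple epithelial keratins, KRT20 and KRT23 had no peak, and 0 of the 4 tested were called. KRT7 was marked in most libraries, 10 of 11. It had 2 and 1 peaks in S100A8 and 0, 1, and 2 peaks in S100A9 in EtOH. In TAM it had 5, 4, and 1 peaks in S100A8 and 3, 2, and 2 peaks in S100A9. The means of 1.2 ± 0.837 and 2.83 ± 1.47 overlap, and the adjusted p was 0.159 (exact permutation test).

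KRT8 had 1 and 0 peaks in S100A8 in EtOH, 1, 0, and 1 in S100A9 in EtOH, 1, 3, and 1 in S100A8 in TAM, and 4, 2, and 6 in S100A9 in TAM (adjusted p = 0.0948, exact permutation test). KRT18 had 1 peak in a single EtOH library and 1 or 2 peaks in each of the 6 TAM libraries (adjusted p = 0.0613, exact permutation test). When peaks outside the gene body were left out, KRT18 was the only keratin gene called, and 1490 of 11877 genes tested were called. That setting drops the only EtOH peak of KRT18, whose summit lies 56 bp upstream of its start. Peaks of the same site in the 3 S100A9 libraries in TAM have summits inside the body and are kept. The annotated body of KRT8 spans 52768 bp and overlaps that of KRT18, so that part of these peaks count for both. In all, 25 of the 185 peaks in keratin windows belong to more than 1 keratin gene.

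Among the suprabasal and other epidermal keratins, 1 of 4 tested genes was called, which is KRT80. KRT10, the suprabasal keratin of skin, had 1, 1, and 0 peaks in S100A8 and 0, 0, and 2 in S100A9 in TAM. Among mucosal and corneal keratins, 0 of 2 tested genes were called. KRT13, a keratin of stratified mucosa, had 1 peak in an S100A9 library in EtOH and 1, 1, 0, 2, 2, and 1 peaks in TAM (adjusted p = 0.146, exact permutation test).

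Of the 9 inner root sheath keratins, 6 had no peak, where 19.1% of all genes had none, and KRT72 led the rest with 2, 1, and 0 peaks in S100A8 and 0, 1, and 2 peaks in S100A9 in TAM. Of the 17 hair and nail keratins, 10 had no peak and 0 of 7 tested genes were called. KRT32 and KRT36 each had 1 peak in 5 TAM libraries and none in EtOH (adjusted p = 0.0613, exact permutation test). KRT86 had a peak in 6 libraries, 3 of each treatment, and its difference of 0.733 peaks was 0.4 without replicate 3 of S100A9 in TAM. Its annotated body of 59864 bp overlaps KRT7 and KRT81, and its EtOH peaks lie in introns of KRT7 or KRT86.

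Within each condition, overlapping peaks of its replicates were joined, and a region supported by at least 2 replicates was taken as a confident site. Confident sites were found at 20 of the 55 keratin genes in at least 1 condition, where 66.7% of all genes had a site. S100A8 in EtOH had a site at 1 keratin gene (all genes 6.64%), S100A9 in EtOH at 3 (all genes 7.53%), S100A8 in TAM at 14 (all genes 53%), and S100A9 in TAM at 18 (all genes 61.8%). Without replicate 3 of S100A9 in TAM, that last number was 9. Without replicate 2 of S100A9 in EtOH, no keratin gene had a site in that condition. Sites of S100A8 in TAM fell to 8 genes without replicate 1 and to 6 without replicate 2.

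Merging the 4 conditions gave 34 sites in keratin windows, 24 in the type II cluster and 10 in the type I cluster. This is 42.7 and 23.3 sites per Mb of window, against 15.1 per Mb in the windows of all protein-coding genes. Each site was placed by the summit of the peak that was strongest relative to its library. Of the 34 sites, 14 lie in promoters (41.2%, against 31.1% of all 30322 sites). A further 8 lie in introns, 2 in coding exons of KRT84 and KRT10, and 10 between genes. No EtOH library had a peak at 25 of the 34 sites (73.5%, against 68.9% of all sites). Only 1 site was called in all 6 TAM libraries, which is 2.94% of the keratin sites against 14.3% of all sites. The mean percentile of a site's peaks within their libraries had a median of 43.0 over keratin sites and 51.1 over all sites. Windows of short genes lie nearer to promoters, and the part of window length in these densities was not tested.

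The hg19 forward-strand sequences are shown around 5 leading sites, at KRT7, KRT80, KRT6A, KRT8 with KRT18, and the KRT36 to KRT13 interval. Peak numbers per gene are counted over whole windows and do not rest on these sites alone. Each run has 101 bases centered on the summit, and capitals mark matches to the motifs searched, which are explained below.
KRT7 intron, chr12:52638055-52638155: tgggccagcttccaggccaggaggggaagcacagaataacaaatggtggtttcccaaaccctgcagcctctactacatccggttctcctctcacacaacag
KRT80 promoter, chr12:52586129-52586229: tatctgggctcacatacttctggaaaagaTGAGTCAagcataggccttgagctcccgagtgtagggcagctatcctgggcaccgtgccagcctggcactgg
KRT6A upstream, chr12:52888470-52888570: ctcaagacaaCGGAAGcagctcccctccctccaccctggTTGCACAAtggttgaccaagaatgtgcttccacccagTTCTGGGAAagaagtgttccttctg
KRT8 and KRT18, chr12:53343676-53343776: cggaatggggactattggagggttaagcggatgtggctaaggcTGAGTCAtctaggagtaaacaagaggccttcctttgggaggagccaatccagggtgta
KRT36 to KRT13, chr17:39653103-39653203: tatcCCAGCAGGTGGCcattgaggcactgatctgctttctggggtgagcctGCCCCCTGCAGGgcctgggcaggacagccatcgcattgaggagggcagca

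The site in an intron of KRT7, chr12:52637664-52638333, was the keratin site called most often. It had a peak in 10 of the 11 libraries, missing only from replicate 1 of S100A9 in EtOH. Its summit lies 11801 bp downstream of the start of KRT7. Fold enrichment over input was 10.1 and 8.20 in S100A8 in EtOH and 9.01 and 11.01 in replicates 2 and 3 of S100A9 in EtOH. In TAM it was 9.69, 8.36, and 6.64 in S100A8 and 11.8, 14.0, and 6.35 in S100A9. The values of the 2 treatments overlap, with means of 9.58 ± 1.23 (SD, n = 4) and 9.47 ± 2.99 (SD, n = 6). Each is relative to the input of its own library and covers only libraries in which the peak was called, and no test was made. The KRT7 promoter site, 36 bp upstream of an annotated start, had a peak in 1 EtOH and 5 TAM libraries.

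KRT80 held 6 of the 34 sites. The promoter site, 381 bp upstream of the start, had a peak in 1 S100A8 library in EtOH, with a fold enrichment of 8.87, and in 4 TAM libraries at 6.65 to 10.1. Its 3 intronic sites were called in 4, 3, and 4 TAM libraries and in no EtOH library. At the first of these, the summits of replicates 1 and 3 of S100A8 in TAM lay in a coding exon of KRT80. The other 2 sites lie 4844 and 4248 bp past the end of the gene. The farther of these was called in 5 TAM libraries. At KRT6A, sites lay 143, 1479, and 3506 bp upstream of the start, and no EtOH library had a peak at any of them. The middle site had peaks in all 3 S100A8 libraries and in 2 S100A9 libraries in TAM, and the site farthest upstream in the 3 S100A9 libraries alone.

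KRT5 had 2 promoter sites, 52 and 836 bp upstream of annotated starts, called in 4 and 3 TAM libraries. KRT8 had 5 sites in its window, each in a promoter of KRT8 or KRT18. The site in the overlap of KRT8 and KRT18, 60 bp upstream of a KRT8 start, had a peak in 5 TAM libraries, and EtOH libraries had none there. A neighboring site 10 bp upstream of a KRT18 start was called in replicate 3 of S100A9 in EtOH and in the 3 S100A9 libraries in TAM, and in no S100A8 library.

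In the type I cluster, the leading site lies at KRT17, 133 bp upstream of an annotated start, with peaks in 5 TAM libraries and none in EtOH. A second KRT17 site, 915 bp upstream, was called in 2 S100A9 libraries in EtOH and in 1 TAM library of each protein. The KRT14 site lies 2505 bp past the end of the gene. It was called in replicate 2 of S100A9 in EtOH and in 4 TAM libraries. Its peak in replicate 3 of S100A9 in TAM had the highest fold enrichment of any peak in a keratin window, 18.0. The KRT14 promoter held a peak in 2 TAM libraries, replicate 1 of each protein, but no confident site. The site between KRT36 and KRT13 was called in 5 TAM libraries. The site 3732 bp upstream of KRT28, a root sheath keratin, was called in only 3 libraries but reached a fold enrichment of 16.1 in replicate 1 of S100A8 in TAM.

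**Figure D3:**
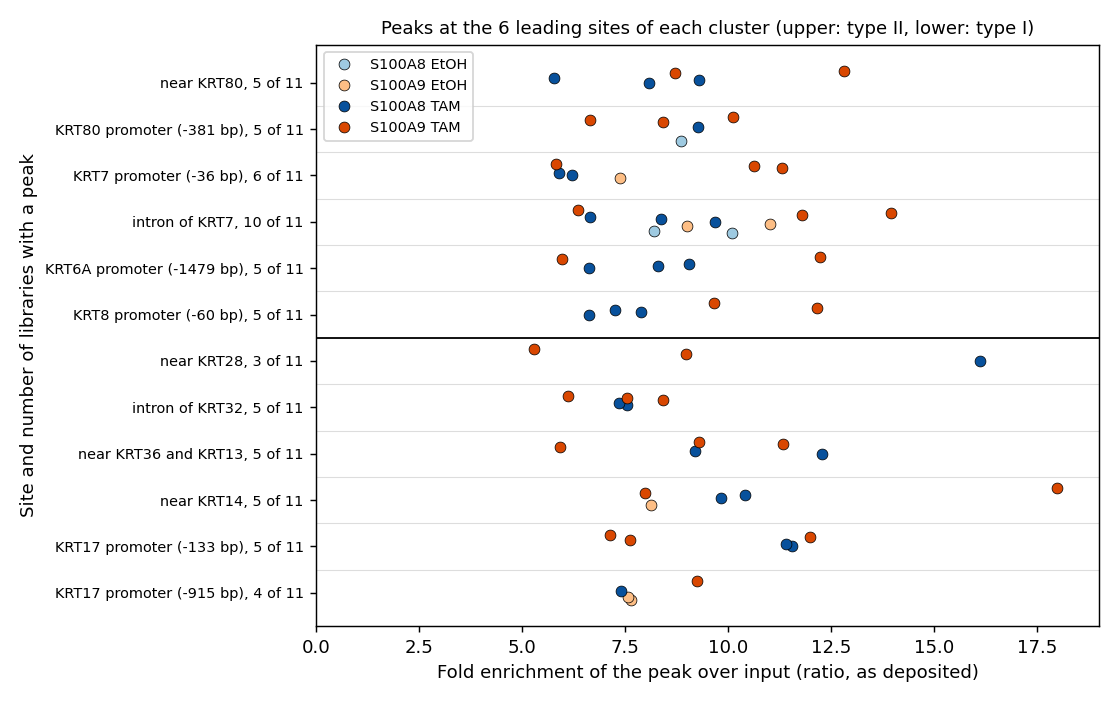
Deposited fold enrichment over input (horizontal axis, a ratio) of each peak at the 6 leading sites of the type II cluster (above the line) and of the type I cluster (below it), with a point per library that called the site. Distances are in bp from the nearest annotated start, and the KRT7 intron site is the only one with points from 10 of 11 libraries.

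In TAM, the type II cluster was the denser of the 2 in every library. Peaks per Mb of keratin window, divided by peaks per Mb of the windows of all genes in the same library, were 1.89 to 3.23 for the type II cluster and 0.948 to 1.46 for the type I cluster over the 6 TAM libraries. The means were 2.59 ± 0.464 and 1.20 ± 0.198 (SD, n = 6). In EtOH the ratios were 0.863 to 3.71 and 0 to 4.26 (n = 5), and they rest on 1 to 5 and on 0 to 2 peaks per library. Over all 55 genes, the ratio was 1.88 ± 0.664 in EtOH and 1.99 ± 0.300 in TAM, which differ by less than the spread between libraries. The share of a library's peaks that falls at keratin genes was thus similar in both treatments, while the number differed with list size. No test was made of these scores over the members.

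**Figure D4:**
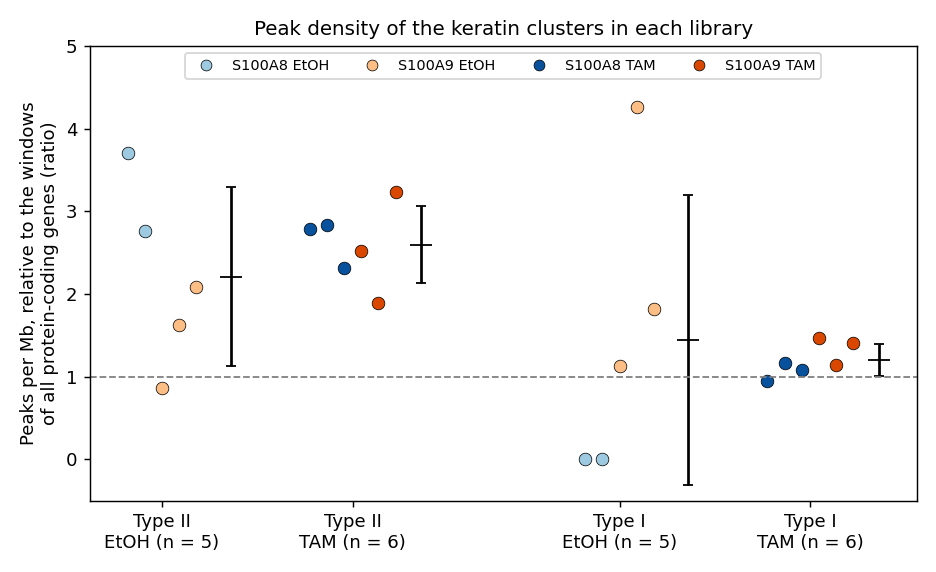
Peaks per Mb in the windows of each keratin cluster divided by peaks per Mb in the windows of all protein-coding genes (vertical axis, a ratio), with a point per library and the mean with SD beside them. The dashed line marks equal density, and in TAM all 6 libraries lie at 1.89 to 3.23 for type II and 0.948 to 1.46 for type I.

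S100A8 and S100A9 were compared by permuting the protein labels within each treatment (200 arrangements, smallest possible p of 0.01, two-sided). After adjustment, 0% of the 15010 genes differed between the proteins, keratin genes included, while 0.46% had an unadjusted p under 0.05, and 0 of these were keratin genes. This test could not call a gene unless a large share of all genes had the smallest p. The lowest p of a keratin gene was 0.17, at KRT8, whose counts were 4, 2, and 6 in S100A9 and 1, 3, and 1 in S100A8 in TAM. The mean difference between S100A9 and S100A8 within treatments was 1.25 peaks there. At KRT80 it was 0.167 peaks (p = 0.89, exact permutation test) and at KRT7 it was -0.75 peaks (p = 0.37, exact permutation test). Of the 34 sites, 24 were called in TAM libraries of both proteins (70.6%, against 77.6% of all sites), 8 in those of S100A9 alone and 2 in those of S100A8 alone. Without the library with the longest list, 21 were called by both, 8 by S100A9 alone, and 5 by S100A8 alone.

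Motifs were searched within 100 bp of the summits of the 34 sites on both strands, and matches of different motifs may overlap. The AP-1 sequence TGAGTCA or TGACTCA was found at 9 sites (26.5%, against 25.8% of all sites), among them the KRT80 promoter site, the site in the overlap of KRT8 and KRT18, and the KRT7 intron site, where it lies outside the bases printed. A CTCF sequence was found at 8 sites (23.5%, against 11.1%). The C/EBP sequence TTACNNAA or TTGCNNAA was found at 3 sites (8.82%, against 16.9%), the KRT6A upstream site being one of them. The AP-2 sequence GCCNNNGGC occurred at 6 sites (17.6%, against 16.3%), the KLF and SP1 sequence CCCCGCCC at 5 (14.7%, against 10.5%), and the ETS sequence CGGAAG at 3 (8.82%, against 13.3%). The STAT sequence TTCNNNGAA occurred at 3 sites (8.82%, against 5.69%) and a p53 family half-site at 2 (5.88%, against 5.90%). The GRHL sequence AACCGGTT was found at none, and at 0.0759% of all sites. Within 50 bp, AP-1 was found at 17.6% of keratin sites and 19.4% of all sites, CTCF at 17.6% and 9.30%, and the p53 half-site at none of the keratin sites. A match describes the letters near a summit and does not show which factor was bound.

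Genes that work with keratins were examined by lists chosen for their function. Of the 16 intermediate filament genes outside the keratins, 10 were tested and 2 were called with more peaks in TAM (20%, against 20.2% of all genes tested). LMNA, which encodes nuclear lamins A and C, had a mean of 1.6 peaks in EtOH and 10.2 in TAM, and INA, a neuronal filament gene, had 0 and 1. INA thus passed the filter through TAM alone. Of 18 genes for proteins that anchor keratins at desmosomes and hemidesmosomes, 16 were tested and 2 were called (12.5%). These were PKP3, a desmosomal plakophilin, with means of 0.4 and 3.83 peaks, and PLEC, which encodes plectin, with means of 4.4 and 13.3.

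Of 20 genes for transcription factors known to act on keratin genes, all were tested and 7 were called (35%, against 20.2% of all genes tested). TP63, the factor of basal epithelium, had no peak in EtOH and 3, 2, 1, 2, 2, and 3 peaks in the TAM libraries (adjusted p = 0.0254, exact permutation test). The others were TFAP2A, GRHL2, GRHL3, FOS, FOSL2, and JUND. TP63 and GRHL2 had no EtOH peak and passed the filter through TAM alone, which fixes their direction. The median difference was 2.05 peaks over these 20 genes and 0.667 over the 27 keratin genes tested, against 1.07 over all genes tested. Of 94 keratin-associated protein genes, whose products are the matrix of hair, 85 had no peak and 0 of 2 tested genes were called. Their median body is 859 bp.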

How the data were processed

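The authors aligned reads to hg19 with Bowtie2 and discarded those that did not map uniquely. MACS2 then gave narrow peaks for each library against its own input, without pooling replicates. Versions are not given in the sources used here. The deposited fold enrichment is a ratio of signal at the summit over input, and the −log10 q value is that of the authors' MACS2. The deposited summit is an offset in bp. Lists reach q = 0.05. No read numbers are given, so that no counting interval could be made.

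Genes of GENCODE 44 lifted to GRCh37, on chromosomes 1 to 22 and X, were used with Python 3.11.15, numpy 2.4.6, and pandas 2.3.3. All 23 chromosomes' peaks lay within GRCh37 lengths. Summits were counted per gene with q ≤ 1e-07, and a peak could count for several genes. Exact permutation tests over libraries were two-sided by doubling the smaller tail, adjusted by the Benjamini-Hochberg method over genes with a peak in at least 2 libraries, and called at 0.05. The test was checked on simulated peak numbers. Peaks overlapping by at least 1 bp were merged into sites. Between any 2 libraries at most 0.0462% of peaks were identical.

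Keratin genes, role lists, and motifs were chosen with earlier results of these data known. The genes described are the members of the basal, activated, and simple lists, the member with a peak in most libraries from each other list, and any gene with more peaks in EtOH. KRT10, KRT32, and KRT36 were added after their values were seen. Sites described lead their cluster by the number of libraries and then by mean percentile, and sites at KRT5, KRT6A, KRT8, KRT18, and KRT80 outside the leading 6 were added as these genes are described. Alternatives were other q limits, windows, equal list sizes, whole-peak overlap, other permutation schemes, other filters, and the omission of each library. The sequence of 1 further leading site is not reported here.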

Additional observations from a re-analysis of the deposited data

Results flagged for a closer look

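The number of peaks in keratin windows in replicate 3 of S100A9 in TAM, 48, lay far from the 19 to 29 of the other 5 TAM libraries in relation to their range. Its list was also the largest, with 40735 peaks against 21518 to 29381, and its density relative to all gene windows was 2.44 against 1.56 to 2.11. Without it, KRT80 and KRT6A kept an adjusted p of 0.0436 in the exact permutation test. Such gaps were examined in 12 sets of values, and chance alone flags about 1 in 20.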

How the results depend on the processing

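KRT80 and KRT6A were also called with windows of 10 kb, whole-peak overlap, and no filter on genes. Called keratin genes numbered 8 with every deposited peak (4915 of 17820 over all genes), 1 with q ≤ 1e-10 (KRT6A, 1583 of 12864), and 1 in gene bodies (KRT18, 1490 of 11877). They numbered 0 with promoters, equal lists, presence of a peak, or treatment permuted within each protein, where 0 of all genes were called. Leaving out each library gave 0 to 3. With the replicate number as a block, 0 were called (exact permutation test, adjusted p = 0.0847 for both genes, 0 of 15010 genes), where the smallest possible p is 0.0185. Correlations of same-numbered libraries were -0.0120 to 0.0566. Whether the numbers pair libraries cannot be decided from these values, since the labels do not say what was repeated. No setting called a keratin gene between the proteins. Under equal lists, the difference between TAM and EtOH turned to -0.4 peaks at KRT80 and KRT86, -0.433 at KRT7, and -0.0333 at KRT14 and KRT17. At KRT86 it also turned with q ≤ 1e-10 (-0.0667) and with presence of a peak (-0.1).

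Mean numbers of keratin genes with a peak in EtOH and TAM were 1.2 and 10.8 with q ≤ 1e-10, 15.2 and 30.8 with every peak, 2 and 9.67 in gene bodies, 6.8 and 25.2 with 10 kb, 1.4 and 7.33 in promoters, and 2.2 and 0.667 with equal lists. Keratin genes with a confident site are given in the order S100A8 EtOH, S100A8 TAM, S100A9 EtOH, S100A9 TAM. They numbered 0, 8, 0, and 9 with q ≤ 1e-10, 7, 24, 5, and 28 with every peak, and 1, 7, 1, and 9 in gene bodies. They numbered 2, 21, 4, and 26 with 10 kb, 0, 6, 1, and 7 in promoters, and 0, 0, 2, and 0 with equal lists. With whole-peak overlap they numbered 2, 15, 3, and 18, with at least 1 replicate 6, 26, 8, and 29, and with every replicate 1, 5, 0, and 9. Leaving out each library gave 6 to 14 for S100A8 TAM, 0 to 3 for S100A9 EtOH, and 9 to 18 for S100A9 TAM. For S100A8 EtOH, no value is possible without a replicate. Unknown depth limits these counts, and the cause of the changes was not tested.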
